A study of Mus musculus with 18 samples.

Results

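The p53 pathway was followed in mouse liver through 10 genes, namely Trp53 itself, Mdm2, Trp53inp1, Cdkn1a, Ccng1, Btg2, the cyclin gene Ccnd1 and the 3 Gadd45 genes. They are 10 of the 25266 genes listed for each mouse, and all 10 were among the 11090 genes that were tested, those whose RPKM averaged 0.5 or more over the 18 mice. RPKM is the number of reads of a gene scaled by its length and by the depth of the library, so levels of different genes can be set side by side. The genes were chosen by their symbols with earlier results from these same RPKM values known, so their values are given as a description and without p-values.

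All 18 mice were males with floxed Ppp6r3, the gene of the PP6 regulatory subunit SAPS3. FF mice carried no Cre, and LKO mice came from FF mice crossed with C57BL/6 Alb-Cre mice. In these the albumin promoter, which the paper calls liver-specific, drives Cre. From 8 weeks of age and for 16 weeks, 4 FF and 4 LKO mice ate a control diet (CD) with 10% of its calories from fat, and 5 FF and 5 LKO mice a high fat diet (HFD) with 32.5%. The numbered labels were taken as separate mice. Because FF mice lack Cre, the loss of Ppp6r3 and the presence of Cre cannot be told apart.

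p53, encoded by Trp53, is a transcription factor that is held low by the ubiquitin ligase MDM2 and accumulates under DNA damage, oxidative and metabolic stress. It then switches on genes that stop the cell cycle, above all Cdkn1a, whose product p21 inhibits the cyclin-dependent kinases. Many of these targets are also driven by other stress and nutrient signals. In the adult liver most hepatocytes are quiescent, and p21 is known to increase in injured and fatty liver.

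The depth of the libraries, recovered from the steps between low values, was 23.4 to 37.0 M reads per mouse, with group medians of 24.9 to 27.1 M. Ppp6r3, the targeted gene, was at 8.38 to 11 RPKM in FF CD mice, 3.88 to 4.08 in LKO CD mice, 7.55 to 8.82 in FF HFD mice and 4.22 to 4.87 in LKO HFD mice. It was lower in LKO mice under CD (log2 fold change -1.04, adjusted p = 6.72e-07) and under HFD (-0.72, adjusted p = 7.14e-06). These and all other adjusted p-values are two-sided, from a limma fit of log2(RPKM + 1) with Benjamini-Hochberg adjustment over the tested genes. Fold changes on this scale understate the change of genes below a few RPKM. The hepatocyte markers summed to 36930 to 53710 RPKM, and no marker of any liver cell type looked at was at 0 in all mice.

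To count as changed, a gene needed a fold change of more than 1.5 and an adjusted p of less than 0.05. HFD raised 5 of the 10 genes past these thresholds in FF mice and lowered 0, against 5.11% of all tested genes raised and 1.49% lowered. The 5 were Cdkn1a, Ccnd1, Btg2, Ccng1 and Trp53inp1, and the median log2 fold change of the 10 genes was 0.58, against 0.071 over all tested genes. In LKO mice 1 of the 10 was higher on HFD, Gadd45b, and 0 were lower, where 0.965% of all tested genes were higher and 0.307% lower. The median of the 10 was 0.33 there, against 0.067.

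Between the genotypes 0 of the 10 genes differed under CD in limma, where 1 of the 10 and 851 of the 11090 tested genes had an unadjusted p under 0.05. Under CD 0.0902% of all tested genes were higher in LKO mice and 0.135% were lower. Under HFD 0 were higher and 1 was lower in LKO mice, Cdkn1a, beside 0.902% and 1.17% of all tested genes. The difference between the HFD responses of the genotypes passed for 1 of the 10, Cdkn1a, with the smaller response in LKO mice, beside 0.947% of all tested genes with a larger and 1.5% with a smaller response. Since the genes were chosen with these contrasts known, nothing is read from their counts against these shares.

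**Figure D1:**
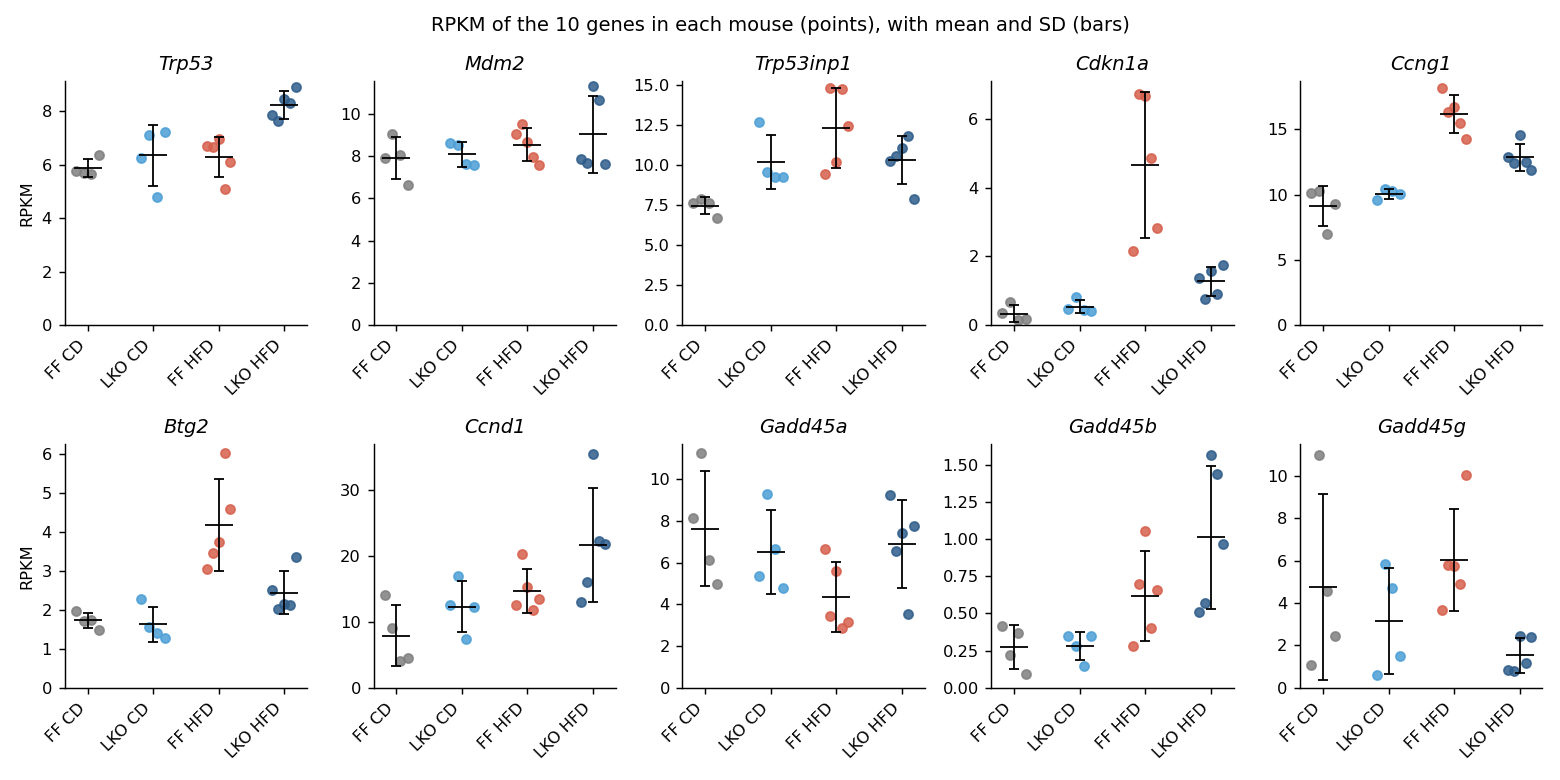
RPKM (vertical axes, from 0) of the 10 genes in each mouse by group, with 1 point per mouse and bars for the mean and SD. Cdkn1a, Ccng1, Btg2 and Trp53inp1 were above all FF CD mice in all 5 FF HFD mice, with LKO HFD means between those of the FF CD and FF HFD mice. Mdm2 lay between 6.64 and 11.3 in all mice.

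Trp53 (ENSMUSG00000059552.13) lies on chromosome 11 from 69580359 to 69591873, plus strand, in GRCm38. Its RPKM was 5.77, 5.71, 5.65 and 6.37 in FF CD mice 1 to 4 and 6.26, 7.12, 4.79 and 7.24 in LKO CD mice 1 to 4. Under HFD its RPKM was 6.69, 6.66, 6.96, 5.09 and 6.11 in FF mice 1 to 5 and 7.85, 7.62, 8.48, 8.33 and 8.93 in LKO mice 1 to 5. The 5 LKO HFD mice were therefore above every mouse of the other 3 groups, which overlapped each other. The means were 8.24 ± 0.518 (SD, n = 5) in LKO HFD mice and 6.30 ± 0.743 (SD, n = 5) in FF HFD mice, a log2 difference of 0.34 (SE 0.094) and a ratio of 1.31, below the fold limit. HFD moved it by 0.082 (SE 0.10) in FF mice and by 0.34 (SE 0.10) in LKO mice. Of the other genes, Cdkn1a, Ccng1, Btg2, Trp53inp1 and Gadd45g had their highest mean in FF HFD mice instead.

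Mdm2 (ENSMUSG00000020184.15), the ubiquitin ligase that degrades p53 and is itself a p53 target, lies on chromosome 10 from 117688875 to 117710758, minus strand. Its RPKM was 7.90, 9.07, 8.04 and 6.64 in FF CD mice and 8.64, 8.54, 7.60 and 7.56 in LKO CD mice. Under HFD it was 9.06, 9.50, 8.66, 7.94 and 7.56 in FF mice and 7.85, 7.67, 11.3, 10.7 and 7.64 in LKO mice. All 4 groups overlapped, and the 2 highest values were those of LKO HFD mice 3 and 4. The log2 differences of all pairwise comparisons lay between 0.033 (SE 0.12, LKO against FF under CD) and 0.13 (SE 0.11, HFD against CD in LKO mice).

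Trp53inp1 (ENSMUSG00000028211.11) encodes a stress-induced nuclear protein that promotes p53 activity and autophagy. It lies on chromosome 4 from 11156431 to 11174379, plus strand. Its RPKM was 7.63, 7.86, 7.65 and 6.69 in FF CD mice and 12.7, 9.60, 9.30 and 9.26 in LKO mice on CD. On HFD it was 9.43, 14.9, 10.2, 14.8 and 12.5 in FF mice and 10.3, 10.6, 11.1, 11.8 and 7.89 in LKO mice. Every mouse of the other 3 groups was above the highest FF CD mouse, LKO HFD mouse 5 by the smallest margin.

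The response of Trp53inp1 to HFD was 0.64 (SE 0.13) on the log2 scale in FF mice, from a mean of 7.46 ± 0.522 (SD, n = 4) to 12.3 ± 2.52 (SD, n = 5), and 0.017 (SE 0.13) in LKO mice. LKO CD mice were already at 10.2 ± 1.67 (SD, n = 4), 0.40 (SE 0.14) above FF CD mice without overlap, and the difference between the genotypes' responses was -0.62 (SE 0.19). The increase in FF mice was below the fold limit with median centring (0.55) or quantile normalization (0.56), and also without FF HFD mouse 2 (0.571) or FF HFD mouse 4 (0.573). Without FF HFD mouse 1, the responses differed past both thresholds, at -0.71, and they did so with rescaling to the same sum (-0.69) or median centring (-0.63).

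Cdkn1a (ENSMUSG00000023067.14) lies on chromosome 17 from 29090976 to 29100727, plus strand. Its RPKM was 0.352, 0.667, 0.147 and 0.174 in FF CD mice and 0.454, 0.819, 0.437 and 0.415 in LKO CD mice, group means above only those of Gadd45b among the 10 genes. On HFD it reached 2.15, 6.73, 6.68, 4.87 and 2.82 in FF mice and 1.38, 0.771, 1.57, 0.892 and 1.75 in LKO mice. All 5 FF HFD mice were above all 13 others. LKO HFD mice were above all FF CD mice, but LKO HFD mouse 2 was below LKO CD mouse 2. Between 7 and 357 reads per mouse lie behind them.

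The mean of Cdkn1a rose from 0.335 ± 0.239 (SD, n = 4) to 4.65 ± 2.13 (SD, n = 5) on HFD in FF mice, a ratio of 13.9 and a log2 fold change of 2.01 (SE 0.23). In LKO mice it was 0.531 ± 0.193 (SD, n = 4) on CD and 1.27 ± 0.425 (SD, n = 5) on HFD, a ratio of 2.40 and a log2 fold change of 0.56 (SE 0.23) that did not pass. LKO HFD mice had 0.274 times the level of FF HFD mice (log2 fold change -1.24, SE 0.21), without overlap, and under CD the genotypes differed by 0.21 (SE 0.24). Their responses differed by -1.45 (SE 0.32).

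Leaving out each mouse in turn, the response of FF mice stayed between 1.87 and 2.19 and the difference under HFD between -1.43 and -1.11, and both passed each time. That between the responses stayed between -1.64 and -1.31 but did not pass without FF CD mouse 3 (-1.38) or LKO CD mouse 2 (-1.36), or at -1.45 when all genes above 0 were tested. A pseudocount of 0.1 in place of 1 moved the response of FF mice to 3.47 and that of LKO mice to 1.10, because the CD values are below 1 RPKM.

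**Figure D2:**
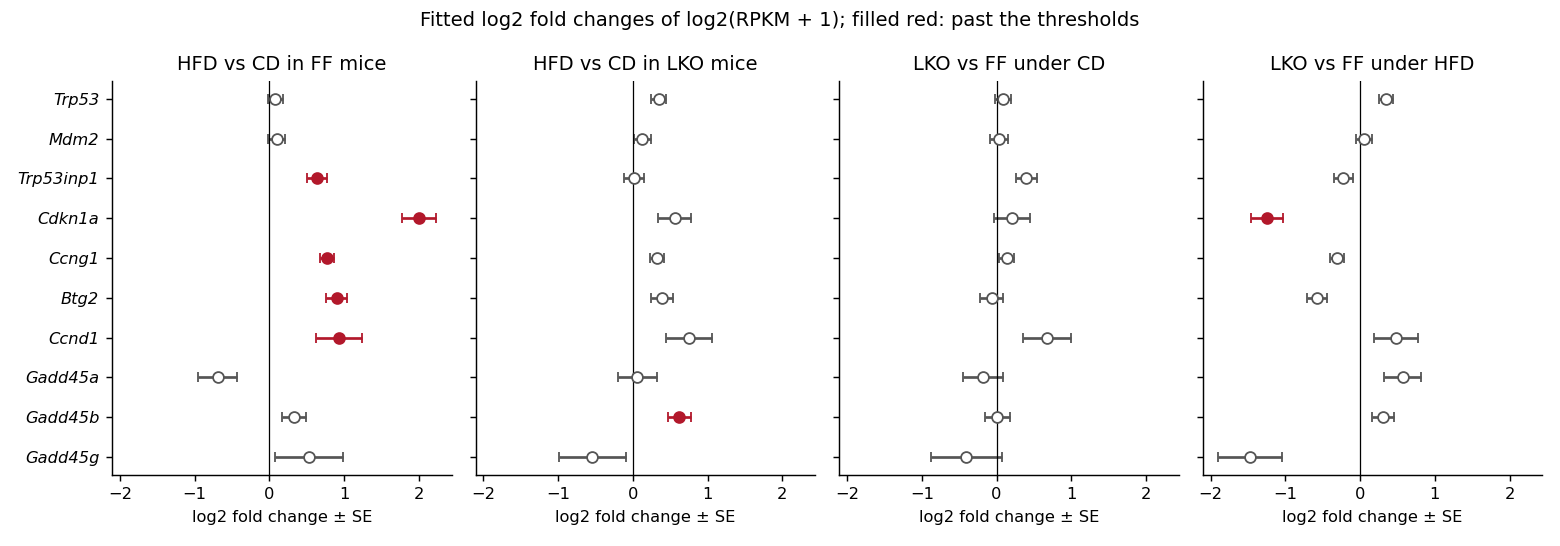
Log2 fold change of log2(RPKM + 1) with its SE (horizontal axis) for the 10 genes in the 4 pairwise comparisons. Filled red points passed the fold limit of 1.5 and the adjusted p of 0.05. In FF mice 5 genes passed, led by Cdkn1a at 2.01, and in LKO mice Gadd45b at 0.62.

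Ccng1 (ENSMUSG00000020326.7) encodes cyclin G1, a p53 target that recruits a phosphatase to MDM2. It lies on chromosome 11 from 40748552 to 40755311, minus strand. Its RPKM was 10.1, 10.3, 6.95 and 9.28 in FF CD mice and 9.57, 10.4, 10.3 and 10.0 in LKO CD mice. In mice on HFD it was 18.2, 16.3, 16.7, 15.5 and 14.3 in FF mice and 12.9, 12.4, 14.6, 12.5 and 11.9 in LKO mice. Both HFD groups were above both CD groups without overlap, and 4 of the 5 FF HFD mice were above every LKO HFD mouse, with FF HFD mouse 5 below LKO HFD mouse 3.

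The log2 fold change of Ccng1 on HFD was 0.77 (SE 0.097) in FF mice, from 9.16 ± 1.54 (SD, n = 4) to 16.2 ± 1.43 (SD, n = 5), a ratio of 1.77 that passed with each mouse left out. In LKO mice it was 0.32 (SE 0.097), from 10.1 ± 0.366 (SD, n = 4) to 12.9 ± 1.04 (SD, n = 5), below the fold limit. On HFD the LKO mice were 0.31 lower than the FF mice (log2 difference -0.31, SE 0.092), and the 2 responses differed by -0.45 (SE 0.14). Its SE was the smallest of the 5 genes raised in FF mice.

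Btg2 (ENSMUSG00000020423.6) encodes an antiproliferative protein that promotes the removal of poly(A) tails and is induced by p53 and by cyclic AMP signalling. It lies on chromosome 1 from 134075170 to 134079120, minus strand. Its RPKM was 1.97, 1.71, 1.75 and 1.5 in FF CD mice and 2.28, 1.55, 1.41 and 1.29 in LKO mice on CD. On HFD it was 3.06, 3.47, 3.76, 6.03 and 4.59 in FF mice and 2.51, 2.04, 2.16, 2.14 and 3.37 in LKO mice. All FF HFD mice were above all CD mice of either genotype, and LKO HFD mouse 5 was the only LKO HFD mouse above an FF HFD mouse, FF HFD mouse 1.

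The log2 fold change of Btg2 on HFD was 0.90 (SE 0.15) in FF mice, from 1.73 ± 0.194 (SD, n = 4) to 4.18 ± 1.17 (SD, n = 5), and passed with each mouse left out. It was 0.39 (SE 0.15) in LKO mice, from 1.63 ± 0.445 (SD, n = 4) to 2.44 ± 0.547 (SD, n = 5). LKO HFD mice were at 0.584 times the level of FF HFD mice, a log2 fold change of -0.58 (SE 0.14) just inside the fold limit. It passed without FF HFD mouse 1 (-0.66), 2 (-0.62) or 3 (-0.60) and without LKO HFD mouse 1 (-0.59) or 5 (-0.67). It also passed with a pseudocount of 0.1 (-0.74) and with rescaling to the same sum (-0.62), median centring (-0.61) or quantile normalization (-0.61).

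To show the sequence before the start sites of the 3 genes that rose in FF mice with each mouse left out, Cdkn1a, Ccng1 and Btg2, their 250 upstream bases are printed 5′ to 3′ on the coding strand, from RefSeq with the GRCm38.p6 assembly. Capitals mark p53 half-sites in Cdkn1a and Ccng1 and a cyclic AMP response element in Btg2. The Cdkn1a window is chr17:29090729-29090978 (plus strand), that of Ccng1 chr11:40755287-40755536 (minus strand) and that of Btg2 chr1:134079156-134079405 (minus strand).
Cdkn1a: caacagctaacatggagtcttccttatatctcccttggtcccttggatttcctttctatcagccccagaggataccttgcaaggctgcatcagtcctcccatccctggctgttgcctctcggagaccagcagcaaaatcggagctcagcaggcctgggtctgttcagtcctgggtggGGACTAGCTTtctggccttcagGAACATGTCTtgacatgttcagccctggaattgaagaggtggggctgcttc
Ccng1: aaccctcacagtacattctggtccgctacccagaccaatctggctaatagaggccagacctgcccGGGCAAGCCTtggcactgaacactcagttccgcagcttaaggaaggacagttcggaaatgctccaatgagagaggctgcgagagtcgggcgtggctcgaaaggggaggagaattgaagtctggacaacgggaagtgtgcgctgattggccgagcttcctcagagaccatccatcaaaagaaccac
Btg2: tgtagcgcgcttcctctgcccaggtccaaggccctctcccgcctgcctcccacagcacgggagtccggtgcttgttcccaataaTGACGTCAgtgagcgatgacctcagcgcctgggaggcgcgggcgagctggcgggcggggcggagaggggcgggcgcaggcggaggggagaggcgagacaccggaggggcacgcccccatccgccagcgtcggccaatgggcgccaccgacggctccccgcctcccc

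The promoter windows searched held these 250 bases and the 50 from the start site on, and 8 of the 10 genes had an entry, all but Ccnd1 and Trp53inp1. On both strands 7 motifs were searched, namely the p53 half-site by its name, the cyclic AMP response element TGACGTCA, the AP-1 site TGANTCA, the E-box CACGTG, the GC box GGGCGG, the CCAAT box and the TATA box TATAAA. None of them contains another, and matches were counted separately where they overlap. The p53 half-site was in a window of 5 of the 8 genes, Cdkn1a, Ccng1, Gadd45a, Mdm2 and Trp53, and in 8.36% of 32851 promoter windows. In Cdkn1a its matches began at positions -73 and -51 from the start site of the printed window, and the 10 bases after the second match differ from a half-site at 1 letter. In Ccng1 it began at -185, and the next 10 bases differ at 6 letters. The 10 bases directly before this Ccng1 match, agacctgccc, differ from a half-site at 1 letter. For the other genes only the bases after a match were compared. The other Cdkn1a start site lies downstream, and its window, chr17:29093519-29093818, held GC boxes and no p53 half-site.

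The cyclic AMP response element was in 1.79% of all windows and in 1 of the 8 genes, Btg2, at -166. The E-box was in 3 of the 8 genes, Gadd45b, Gadd45g and Trp53, and in 7.15% of windows. The TATA box was in the same 3 genes and in 13.62% of windows. GC boxes were in 5 of the 8 genes and 35.66% of windows, CCAAT boxes in 7 and 37.41%, and the AP-1 site in 0 and 7.81%. A match describes these letters only, and no binding of a factor was measured.

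Ccnd1 (ENSMUSG00000070348.5) encodes cyclin D1, which drives the entry of quiescent hepatocytes into the cell cycle and is itself held back by p21. It lies on chromosome 7 from 144929931 to 144939925, minus strand. Its RPKM was 14, 9.0, 4.10 and 4.47 in FF CD mice and 12.5, 16.9, 7.43 and 12.3 in LKO CD mice. After HFD it was 12.5, 20.3, 15.3, 11.8 and 13.5 in FF mice and 12.9, 16.0, 35.4, 22.3 and 21.9 in LKO mice. It was the most abundant of the 10 genes in LKO mice on either diet and the most variable among mice of a group in RPKM, with FF CD mouse 1 above 3 of the 5 FF HFD mice.

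The means of Ccnd1 were 7.90 ± 4.66 (SD, n = 4) in FF CD, 12.3 ± 3.88 (SD, n = 4) in LKO CD, 14.7 ± 3.38 (SD, n = 5) in FF HFD and 21.7 ± 8.62 (SD, n = 5) in LKO HFD mice. The log2 fold change on HFD was 0.94 (SE 0.31) in FF mice and 0.74 (SE 0.31) in LKO mice, and the 2 differed by -0.19 (SE 0.44). The call in FF mice was lost without FF CD mouse 3 (0.72) or 4 (0.75) and without FF HFD mouse 2 (0.82), 3 (0.92) or 5 (0.96), and also when all genes above 0 were tested or the replicate number was a block, at the same 0.94. Unlike Cdkn1a, Ccnd1 had its highest mean in LKO HFD mice, 0.48 (SE 0.29) above FF HFD mice and not past the thresholds.

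The Gadd45 genes encode small acidic proteins that bind p21, the proliferating cell nuclear antigen and stress kinases, and each responds to its own set of stress signals. Gadd45a (ENSMUSG00000036390.8) lies on chromosome 6 from 67035096 to 67037457, minus strand. Its RPKM was 8.14, 11.3, 6.13 and 5.0 in FF CD mice and 5.35, 9.28, 6.67 and 4.78 in LKO mice on CD. On HFD it was 6.67, 3.42, 5.61, 2.86 and 3.18 in FF mice and 9.26, 6.57, 7.41, 3.53 and 7.76 in LKO mice. The groups overlapped, with 3 of the 5 FF HFD mice below every mouse of the other groups. Its log2 fold change on HFD was -0.69 (SE 0.26) in FF mice and 0.057 (SE 0.26) in LKO mice. The value in FF mice did not pass, but did without FF CD mouse 4 (-0.85), FF HFD mouse 1 (-0.84) or LKO HFD mouse 4 (-0.69), and also with median centring (-0.78), quantile normalization (-0.77) or the replicate number as a block (-0.68).

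Gadd45b (ENSMUSG00000015312.9) lies on chromosome 10 from 80930073 to 80932204, plus strand, and was the least abundant of the 10 genes over all mice, with 3 to 67 reads per mouse. Its RPKM was 0.418, 0.221, 0.371 and 0.0934 in FF CD mice and 0.349, 0.280, 0.147 and 0.348 in LKO CD mice. With HFD it was 0.278, 0.697, 1.05, 0.398 and 0.658 in FF mice and 0.509, 0.572, 1.57, 1.43 and 0.968 in LKO mice. All LKO HFD mice were above all CD mice, and FF HFD mice overlapped both. The log2 fold change on HFD was 0.62 (SE 0.16) in LKO mice, a ratio of 3.60, and 0.33 (SE 0.16) in FF mice, a ratio of 2.24, and the 2 differed by 0.29 (SE 0.22).

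The call of Gadd45b in LKO mice was lost without any of 7 of the 9 LKO mice. The log2 fold change was then 0.65, 0.62, 0.57 and 0.64 without LKO CD mice 1, 2, 3 and 4, and 0.52, 0.54 and 0.62 without LKO HFD mice 3, 4 and 5. With a pseudocount of 0.1 it was 1.46 in LKO mice and 0.93 in FF mice.

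Gadd45g (ENSMUSG00000021453.2) lies on chromosome 13 from 51846678 to 51848468, plus strand. Its RPKM was 1.07, 11, 4.55 and 2.45 in FF CD mice and 0.595, 5.82, 4.71 and 1.5 in LKO CD mice, a spread of about an order of magnitude between mice on the same diet. In mice on HFD it was 3.66, 5.79, 5.75, 4.87 and 10.0 in FF mice and 0.857, 0.782, 2.44, 1.17 and 2.38 in LKO mice. All LKO HFD mice were below all FF HFD mice, while both CD groups reached across both. The mean in LKO HFD mice, 1.53 ± 0.821 (SD, n = 5), was 0.254 times the 6.02 ± 2.40 (SD, n = 5) of FF HFD mice. This log2 fold change of -1.47 (SE 0.43) was larger than that of Cdkn1a but did not pass, and it passed without FF CD mouse 1, FF CD mouse 2 or LKO CD mouse 1, in a fit of only the HFD mice or with the replicate number as a block, all at the same -1.47. It also passed with rescaling to the same sum (-1.53) or quantile normalization (-1.51).

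Between LKO and FF mice on HFD the log2 differences were 0.57 (SE 0.24) for Gadd45a, 0.30 (SE 0.15) for Gadd45b and -1.47 (SE 0.43) for Gadd45g, and none of the 3 passed. The groups overlapped for Gadd45a and Gadd45b, and the 3 genes were not tested against each other.

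**Figure D3:**
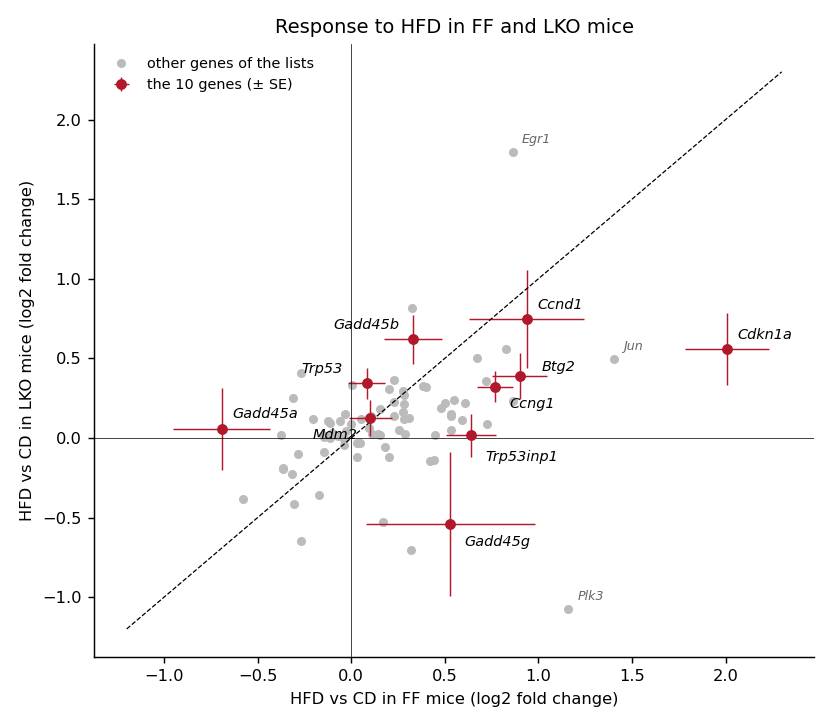
Log2 fold change on HFD in FF mice (horizontal axis) against LKO mice (vertical axis) for the 10 genes (red, with SE) and the tested genes of the 7 lists below (grey), with the line of equal responses dashed. Cdkn1a lies at 2.01 and 0.56 and Trp53inp1 at 0.64 and 0.017, while Ccnd1, at 0.94 and 0.74, is within its SE of the line.

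The rest of the pathway was taken from 7 lists with 107 genes, of which 76 could be tested. These lists and the cell type markers below were also chosen with earlier results of these data known. Their adjusted p-values are therefore not independent tests. In FF mice 10 of the 76 rose on HFD and 0 fell, and in LKO mice 2 rose and 1 fell. The shares of all tested genes past the same thresholds were 5.11% up and 1.49% down in FF mice. In LKO mice these shares were 0.965% up and 0.307% down. Between the genotypes 0 of the 76 differed under CD, and 1 was higher and 1 lower in LKO mice under HFD. For 1 of the 76 the responses of the genotypes differed. As for the 10 genes, no conclusion is drawn from setting these counts, or those per list and marker set below, against such shares.

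Of the apoptosis targets of p53, 6 of 11 were tested, and 1 passed, Fas, the death receptor. Its mean RPKM rose from 5.04 in FF CD mice to 9.74 in FF HFD mice (log2 fold change 0.83, adjusted p = 0.000136, limma). In LKO mice it was 5.87 on CD and 9.13 on HFD (0.56, adjusted p = 0.0215, below the fold limit), and the 2 responses did not differ detectably (-0.27, SE 0.17, adjusted p = 0.459). The median log2 fold change of the 6 genes was 0.35 in FF mice and 0.12 in LKO mice.

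Of the p53 targets in stress and repair, 11 of 14 were tested. Plk3, a polo-like kinase of the stress response, was at 11.6, 9.52, 6.04 and 4.92 RPKM in FF CD mice and 19.2, 28.6, 28.4 and 11.9 in LKO CD mice. Under HFD it was at 11.6, 20.5, 15.6, 24.6 and 21.9 in FF mice and 12.3, 5.45, 8.48, 9.05 and 13.5 in LKO mice. The means were higher in LKO CD (22) and FF HFD mice (18.8) than in LKO HFD (9.76) and FF CD mice (8.01), and FF CD mouse 1 and FF HFD mouse 1 were nearly level.

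Plk3 rose on HFD in FF mice (log2 fold change 1.16, adjusted p = 0.00858, limma) and fell in LKO mice (-1.08, adjusted p = 0.0443), and the 2 responses differed by -2.24 (SE 0.41, adjusted p = 0.00486). Both this difference and the rise in FF mice passed with each mouse left out. The fall in LKO mice did not pass without FF CD mouse 3, FF HFD mice 2 or 5, LKO CD mice 1, 2 or 3, or LKO HFD mice 2, 3 or 4, with an adjusted p of up to 0.141 and a log2 fold change of -0.91 at the least. Plk2, a related kinase, rose in LKO mice from 2.27 to 4.80 RPKM (0.82, adjusted p = 0.00335), while in FF mice it was 2.91 on CD and 3.9 on HFD (0.32, adjusted p = 0.0489, below the fold limit). The median of the 11 genes was 0.32 in FF mice and 0.14 in LKO mice.

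Of the regulators of p53, such as the kinase genes Atm and Chek2 and the Mdm2 relative Mdm4, 12 of 15 were tested and 0 passed in any comparison in limma. At an unadjusted p under 0.05, 2 did in FF mice on HFD, 2 in LKO mice on HFD, 0 between genotypes under CD, 1 under HFD and 1 for the difference between the responses. Of all 11090 tested genes, 3734, 2475, 851, 2145 and 1830 did so in the same order. Chek2 was at 0.50 (SE 0.073) on HFD in FF mice and at -0.32 (SE 0.068) in LKO against FF mice under HFD. Both had an adjusted p under 0.05 in limma but were below the fold limit. The former passed with a pseudocount of 0.1. Trp73 was at 0 in all mice. The median log2 fold change of the tested genes was -0.034 in FF mice and 0.020 in LKO mice.

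Of the inhibitors of cyclin-dependent kinases and other genes of the G1 phase, 15 of 20 were tested and 1 passed, E2f1, which encodes a transcription factor of S-phase genes. Its mean RPKM rose from 0.547 to 1.33 on HFD in FF mice (0.59, adjusted p = 0.000189, limma) and was 0.716 and 0.862 in LKO mice (0.11, adjusted p = 0.471). Under HFD it was 0.32 lower in LKO mice (adjusted p = 0.0393), and the responses differed by -0.48 (adjusted p = 0.0456), both below the fold limit. The rise in FF mice was below the fold limit with median centring (0.50) or quantile normalization (0.45), and without FF CD mouse 3 (0.56) or 4 (0.52) or FF HFD mouse 2 (0.54).

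Of the proliferation genes 9 of 20 were tested, and 11, among them Mki67, Top2a and Cdk1, were below the limit of expression. The genes that rose in FF mice were Mcm2 (0.72, adjusted p = 0.00241), Mcm4 (0.67, adjusted p = 0.00167) and Mcm3 (0.61, adjusted p = 0.000843, limma), which encode subunits of the replicative helicase. In LKO mice these 3 had log2 fold changes of 0.36, 0.51 and 0.22, and the differences between the responses did not pass (adjusted p of 0.414 for Mcm2, 0.7 for Mcm4 and 0.198 for Mcm3). With median centring and quantile normalization Mcm3 (0.52 and 0.49) and Mcm4 (0.58 and 0.55) were below the fold limit, and so was Mcm3 without FF HFD mouse 2 (0.55), 3 (0.58) or 5 (0.58). The median of the 9 genes was 0.54 in FF mice and 0.24 in LKO mice.

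Immediate early genes, which respond to stress and growth signals within minutes, were listed because Btg2 is counted among them, and 11 of 13 were tested. In FF mice 4 rose on HFD. They included Jun, from 2.31 to 7.78 RPKM (1.40, adjusted p = 6.01e-05), Egr1, from 0.866 to 2.41 RPKM (0.86, adjusted p = 0.0397), and Klf6, from 1.73 to 3.99 RPKM (0.86, adjusted p = 0.000406, limma). The other was Atf3. In LKO mice Egr1 alone passed, from 1.01 to 6.73 RPKM (1.80, adjusted p = 0.00833), with LKO HFD mice 3 and 5 at 8.50 and 13.8 and the others at 3.37 to 4.41.

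Under HFD LKO mice had less Dusp1, the phosphatase gene of the stress kinases, at 6.05, 3.36, 5.70, 6.36 and 7.07 RPKM against 19.2, 16.1, 14.8, 19.4 and 18.6 in FF mice (-1.5, adjusted p = 9.95e-05, limma). This passed with each mouse left out. Under CD Dusp1 was at a mean of 8.63 RPKM in LKO and 15.9 in FF mice, without overlap (-0.80, adjusted p = 0.123), and the responses of the genotypes to HFD did not differ detectably (-0.70, SE 0.27, adjusted p = 0.189). LKO HFD mice had more Egr1 (1.02, adjusted p = 0.0403), which did not pass in 8 of the 18 fits with a mouse left out, with an adjusted p of up to 0.117. The rise of Egr1 in FF mice did not pass in 7 of these fits (up to 0.109). The mice left out were FF CD 1, LKO CD 4, FF HFD 2 to 5 and LKO HFD 3 and 5 for the former, and FF CD 1, 3 and 4 and FF HFD 1 to 4 for the latter.

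Of the clock genes 12 of 14 were tested, listed because many liver transcripts vary with the time of day, and 0 passed in any comparison in limma. At an unadjusted p under 0.05, 4 did in FF mice on HFD, 4 in LKO mice on HFD, 2 between genotypes under CD, 5 under HFD and 1 for the difference between the responses. The counts over all 11090 tested genes were 3734, 2475, 851, 2145 and 1830 in the same order. Under HFD, Nr1d1 was at 0.61 (SE 0.18) and Per1 at -0.66 (SE 0.25) in LKO against FF mice. Nr1d1 passed there with quantile normalization, with the replicate number as a block or without FF HFD mouse 1. Per1 did so without LKO HFD mouse 1. The part of time of day in the spread of Gadd45g was not tested.

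**Figure D4:**
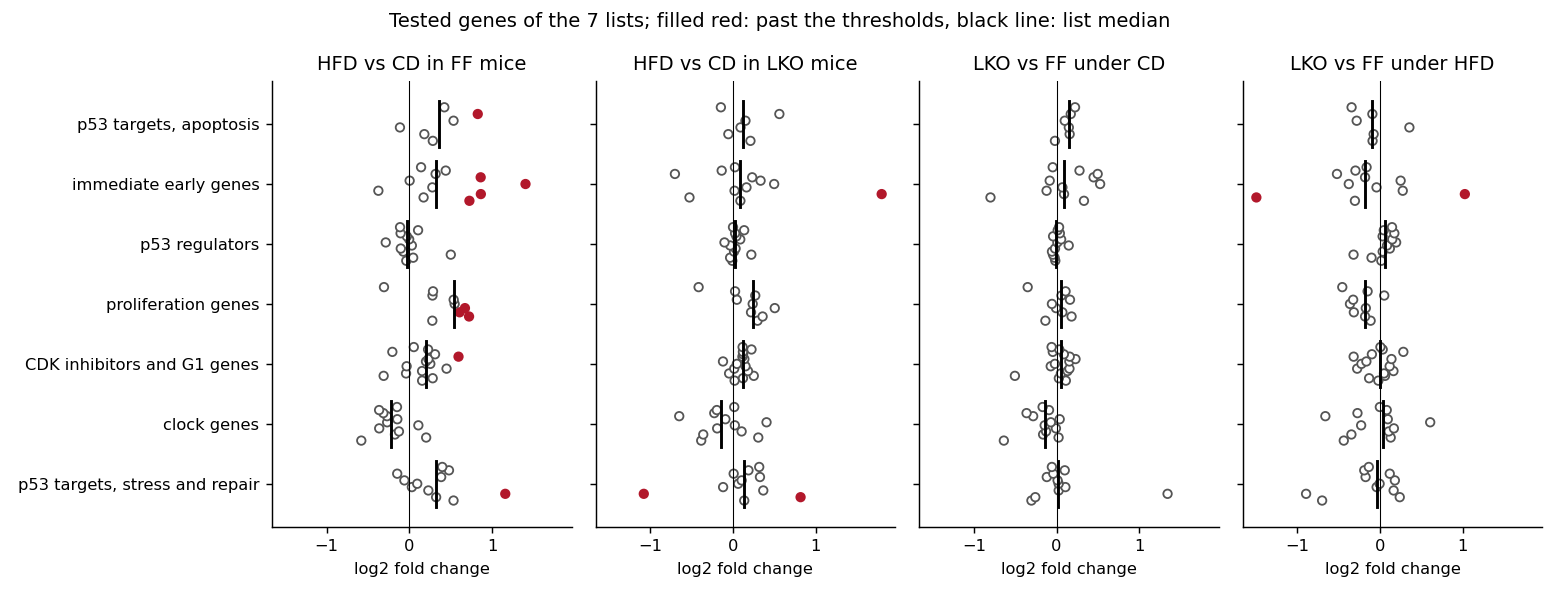
Log2 fold change (horizontal axis) of each tested gene of the 7 lists in the 4 pairwise comparisons, with filled red points past both thresholds and black lines at the list medians. In FF mice 10 genes passed, in LKO mice 3, under CD 0 and under HFD 2, and the list medians in FF mice ran from -0.22 for the clock genes to 0.54 for the proliferation genes.

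Some markers of other liver cells differed between the groups too. The 5 endothelial markers summed to a median of 20.2 RPKM in FF CD, 20.1 in LKO CD, 36.1 in FF HFD and 26.8 in LKO HFD mice, with ranges of 12.0 to 25.4, 9.59 to 27.2, 31.8 to 50.3 and 24.8 to 33.9. Of them 3 rose on HFD in FF mice, for example Pecam1 (1.09, adjusted p = 0.000825, limma), and 0 in LKO mice, where Pecam1 had 0.56 (adjusted p = 0.0992). The 7 macrophage markers summed to medians of 56.1, 47.6, 96.2 and 84.7 RPKM in the same order, within ranges of 45.3 to 64.7, 39.5 to 63.2, 55.3 to 112 and 54.9 to 107, and 3 rose in FF mice and 1 in LKO mice. Col1a1, the collagen gene of stellate cells, was the stellate marker of 5 that rose in FF mice (1.16, adjusted p = 0.00539) and was lower in LKO HFD than in FF HFD mice (-1.15, adjusted p = 0.0157). The summed RPKM of the 5 stellate markers had medians of 60.8 in FF CD, 82.8 in LKO CD, 78.4 in FF HFD and 62.9 in LKO HFD mice. Their ranges overlapped. The responses of the genotypes differed for Col1a1 (-1.51, adjusted p = 0.0364). They did so for 0 of the endothelial, macrophage, lymphocyte and neutrophil markers in limma (0 also at an unadjusted p under 0.05), with -0.53 for Pecam1 (adjusted p = 0.343).

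The 7 lymphocyte and neutrophil markers summed to medians of 3.75, 4.30, 6.18 and 6.93 RPKM, of which 4 were tested and 1 rose in each genotype, S100a9 in FF and S100a8 in LKO mice, and the 5 bile duct markers to 20.6, 24.7, 27.2 and 21.6 RPKM, of which 3 were tested and 0 passed in limma (0 also at an unadjusted p under 0.05 on HFD in either genotype). Of the 5 hepatocyte markers, 2 fell on HFD in FF mice, Apoa1 (-0.72, adjusted p = 0.00276, limma) and Serpina1c (-0.84, adjusted p = 0.00149), and Apoa1 was higher in LKO than in FF mice on HFD (0.64, adjusted p = 0.0169). The median log2 fold change of the 5 on HFD was -0.022 in FF mice. Their summed RPKM had medians of 40760 in FF CD, 47630 in LKO CD, 39800 in FF HFD and 42820 in LKO HFD mice. In whole liver, fewer cells of a type and less RNA per cell cannot be told apart. The part of these markers in the values of Cdkn1a, Btg2 and the other genes was not tested.

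The genes whose log2(RPKM + 1) was most like that of a member over the 18 mice are given as a description, since mice of a group share diet and genotype. For Cdkn1a they were Cidec, which encodes a lipid droplet protein of fatty liver (Pearson's r 0.954), Cyp2a22 (0.943) and Ly6d (0.942). Cidec was at 0.719 ± 0.221 (SD, n = 4) RPKM in FF CD, 2.37 ± 2.18 (SD, n = 4) in LKO CD, 28.1 ± 14.2 (SD, n = 5) in FF HFD and 5.44 ± 3.45 (SD, n = 5) in LKO HFD mice. Cyp2a22 was at 0.928, 1.67, 12.1 and 2.26 RPKM and Ly6d at 0.426, 0.476, 9.26 and 1.25 in the same order. All 3 had the group means in the order of Cdkn1a, from FF CD through LKO CD and LKO HFD to FF HFD.

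**Figure D5:**
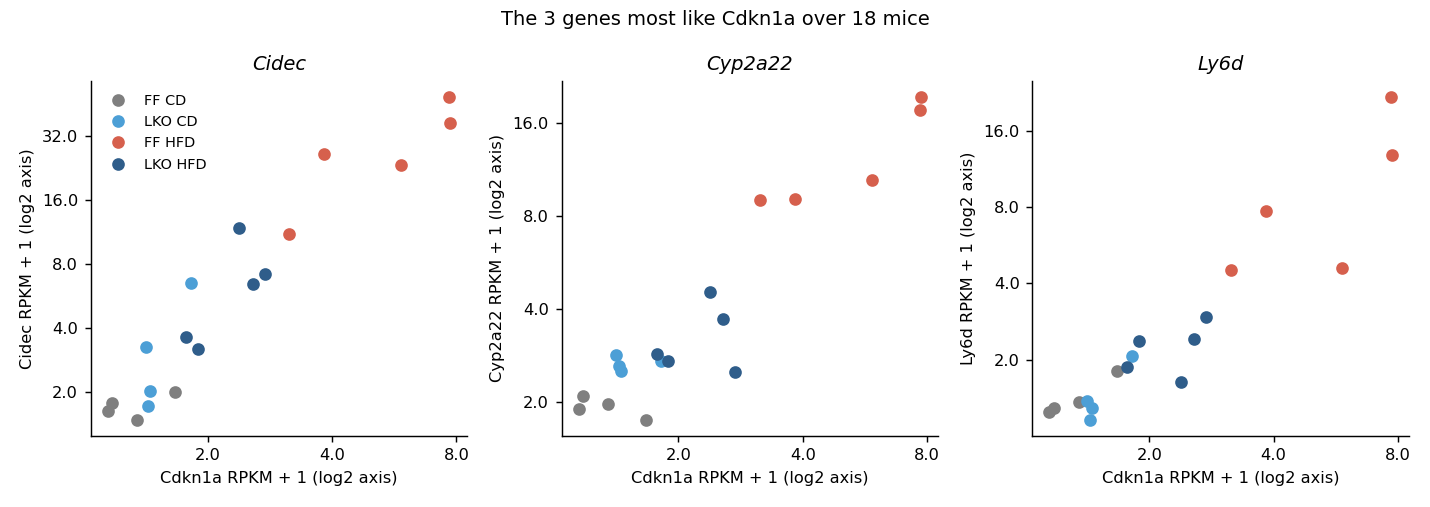
RPKM + 1 of Cidec, Cyp2a22 and Ly6d (vertical axes) against that of Cdkn1a (horizontal axes) in the 18 mice, on log2 axes, with 1 point per mouse coloured by group. The 5 FF HFD mice hold the highest Cdkn1a values, from 2.15 to 6.73 RPKM before 1 is added, and Pearson's r over the mice is 0.954, 0.943 and 0.942.

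For Ccng1 the genes named are Tmem189 (0.958) and Acsf2 (0.924). For Btg2 the nearest were Ctla2a (0.881), Cdkn1a (0.848) and Smarca4 (0.845), and for Trp53inp1 Gk (0.877), which encodes glycerol kinase, Ssx2ip (0.847) and Ccng2 (0.841). For Ccnd1 they were Psmc6 (0.928), Ctns (0.918) and Hsp90ab1 (0.901). For Trp53 they were Usb1 (0.842), Cldn1 (0.818) and Tnfrsf1a (0.813), and for Mdm2 Slc16a1 (0.871), Txnrd1 (0.867) and Apob (0.859).

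For Gadd45b the nearest were Prmt5 (0.916), Bmpr1a (0.914) and Cbll1 (0.906), and for Gadd45g the genes named are Cycs (0.760) and Gpi1 (0.711). For Gadd45a the nearest were Gnat1 at 0.748, Cops3 at 0.693 and Mrps18b at 0.691. Cdkn1a among the neighbours of Btg2 was the single case of a member near another.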

How the data were processed

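Liver RNA of 18 mice was analysed, with the groups taken from the sample labels. The authors deposited RPKM values per gene and mouse, and the processing notes of the submitters name HISAT2 2.0.4, Partek and mm10. The labels give a TruSeq Small RNA kit beside a standard RNA-seq protocol, so the kit behind these values is unclear. The gene annotation, the use of strand and the treatment of reads matching several genes are not given in the sources used here, so reads of overlapping or antisense genes cannot be told apart. Values were used as deposited. Depth was recovered from whole-read steps of single-exon genes up to 0.2 RPKM, and 21.6% to 31.6% of these per mouse gave whole reads. Reads could be recovered for 8 of the 10 genes, not for Ccnd1 and Gadd45a, within a tolerance of 0.02 reads that was wider at high counts. Values under 3 reads count as not detected, and these numbers cover counting error only.

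The tested genes, with an average of 0.5 RPKM or more, were fitted in R 4.3.3 with limma 3.58.1 (eBayes with trend) as log2(RPKM + 1), each of the 4 groups having its own mean. Calls needed a fold change above 1.5 and an adjusted p under 0.05. The fit was tested on simulated data. The 10 genes, the 7 lists and the markers were chosen with earlier results of these data known. Named from the lists were the called genes, at most 3 per list and comparison with the largest change, and for each of the 10 genes the 3 with the highest Pearson's r. Some genes chosen in this way are not reported here. Atf3 and the examples of genes that did not pass were named after their values were seen. Alternatives were another pseudocount, 2 other filters, 3 other scalings, only the groups compared, the adjusted p alone, the replicate number as a block and each mouse left out. Positions come from GENCODE vM21 (GRCm38), promoters from RefSeq. Python 3.11.15, numpy 2.4.6, pandas 2.3.3 and matplotlib 3.10.9 handled tables and figures.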

Additional observations from a re-analysis of the deposited data

Results flagged for a closer look

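The difference between the HFD responses of LKO and FF mice passed the thresholds for Cdkn1a (-1.45 on the log2 scale) and for Plk3 (-2.24). Both genes were chosen with earlier results of these data known, and Cdkn1a is given as a description. The Cdkn1a difference did not pass without FF CD mouse 3 or LKO CD mouse 2, or when all genes above 0 were tested. In the 10 genes, 40 groups of mice were looked at for a mouse apart from its group by Dixon's criterion, and 3 had one, where chance gives about 1 in 20. LKO CD mouse 2 stood above its group in Cdkn1a, at 0.819 RPKM against 0.415 to 0.454. FF CD mouse 4 stood above its group in Trp53, at 6.37 RPKM against 5.65 to 5.77. LKO CD mouse 1 stood above its group in Trp53inp1, at 12.7 RPKM against 9.26 to 9.60.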

How the results depend on the processing

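Of the 10 genes, 5 passed on HFD in FF mice under the settings reported, between 3 and 6 with a mouse left out (3 without FF HFD mouse 2) and 4 without a filter, where Ccnd1 was lost. The count of 5 with median centring, quantile normalization or the replicate block held 4 raised genes and 1 lowered, Gadd45a, which took the place of Trp53inp1 with centring and quantile normalization and of Ccnd1 with the block. In LKO mice 1 passed, 0 without a filter, when the filter was set at 1 RPKM (which removes Gadd45b), with median centring, with quantile normalization or in a fit of only the groups compared, and 0 to 1 with a mouse left out. Between genotypes under CD 0 passed under every setting. Under HFD 1 passed, 2 with a pseudocount of 0.1, median centring or only the groups compared, 3 with rescaling to the same sum, quantile normalization or the adjusted p alone, and 1 to 2 with a mouse left out. For the difference between the responses it was 1, 0 without a filter, 2 with rescaling or median centring, and 0 to 2 with a mouse left out.

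Of the list genes, 10 passed in FF mice, 18 with a pseudocount of 0.1, 6 with median centring or quantile normalization and 24 by the adjusted p alone. In LKO mice 3 passed, 6 with a pseudocount of 0.1 or the adjusted p alone. Under CD 0 to 1 passed with a mouse left out. Under HFD 2 passed, 1 with a pseudocount of 0.1, no filter or only the groups compared, and 4 by the adjusted p alone. The difference between the responses passed for 1, for 2 with rescaling and for 3 by the adjusted p alone. With a mouse left out the range ended at 5 in LKO mice (without LKO CD mouse 2), was 1 to 5 under HFD and 1 to 3 for the difference between the responses. Of 8 other settings with no mouse left out and the same call rule, the fall of Plk3 in LKO mice passed in 5, and the rise of Egr1 in FF mice and its difference under HFD in 4 each. The causes were not tested. No result reversed its sign while called.

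Whether the replicate numbers pair the mice was not tested. Over 25 pairs of mice with the same number, the correlation of deviations from the group means had a median of 0.054, with 10 above 0.1. Over 96 pairs of mice with different numbers it had a median of -0.012, with 26 above 0.1. With the replicate block, 2 of the 10 genes passed between genotypes under HFD, Cdkn1a and Gadd45g, in place of 1. In FF mice on HFD the block lost Ccnd1 and gained Gadd45a.

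Depth limits Gadd45b most, with 3 reads in FF CD mouse 4, and Cdkn1a on CD.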
